A study of Rattus norvegicus with 18 samples.

Results

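The genes described here are the 26 of 22081 gene entries whose RNA in rat lung was higher in MWCNT-treated rats than in control rats at Year 2 but close to control before that. They were selected on the measured values themselves. For each year, the mean log2(CPM + 1) of the 3 control rats was subtracted from that of the 3 MWCNT-treated rats, where CPM is the deposited number of reads per 1000000, adjusted by the trimmed mean of M-values (TMM). A gene was kept when this difference, called d below, was at least 1 at Year 2 and between -0.5 and 0.5 at both earlier years, and when its mean CPM in the MWCNT-treated rats of Year 2 was at least 2. The differences at the 3 years are therefore a description of how the genes were picked. Where counts of significance calls in these contrasts are given below, the rule largely set them and they support nothing.

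All animals were male F344 rats, an inbred strain, and the tissue was a piece of the accessory lobe of the lung from which visible tumor nodules had been left out. Treated rats were given MWNT-7, a straight, needle-like multiwalled carbon nanotube (MWCNT), by intratracheal instillation of 0.5 mg/kg every 4 weeks until they were killed. Control rats were given the vehicle, saline with Tween 80, on the same schedule. There were 3 rats per treatment at each of the 3 time points (Years 0.5, 1, and 2 of treatment), 18 rats in all. Each rat gave 1 library, so the years hold different animals, p-values rest on the spread between 3 rats, and "rat 1" of one group is not "rat 1" of another.

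The lung reacts to long, poorly degraded fibers with lasting inflammation in which macrophages take up the fibers, mast cells and lymphocytes gather, and connective tissue is laid down. Mast cells carry the receptor for immunoglobulin E and store histamine and proteases in granules. Neuroendocrine cells, rare in normal airway epithelium, store peptides and amines in granules that contain chromogranins. Airway secretory cells make mucins and small antibacterial proteins, and plasma cells make antibody, each clone from its own rearranged variable gene segment. In RNA from whole tissue, more cells of a type and more RNA per cell cannot be told apart.

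Total counts ranged from 13297643 to 21130757 per rat, and many of the 26 genes rested on few reads. The mean CPM of the MWCNT-treated rats of Year 2 was under 10 for 15 of the 26 genes and 10 or more for 11. Over the 12 earlier rats, 13 of the 26 had a mean CPM under 2. Because 1 is added before the logarithm, a gene at such a level can differ several-fold and still give a d within 0.5. Levels in single rats are given below as TPM (transcripts per 1000000, scaled by transcript length) or as counts. The lung carried markers of other cell types to different degrees. Across 6 macrophage markers, summed TPM at Year 2 was 2082 to 2709 in MWCNT-treated rats and 274 to 326 in control rats, and that of 5 red cell markers was 3935 to 8598 against 23262 to 34794. All 10 alveolar type 2 cell markers were detected in every group, with a summed TPM at Year 2 of 52169 to 56480 against 28227 to 32008. The part of these cell types in the results below was not tested.

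Of the 26 entries, 17 carried a gene name, 8 carried only a clone name that starts with AABR, and 1 carried a LOC number. They lay on 11 chromosomes, with 5 each on chromosomes 1 and 3. The median d was 0.29 at Year 0.5, 0.34 at Year 1, and 1.33 at Year 2, and the d at Year 2 ranged from 1.00 to 4.93. Although the rule allowed either sign at the earlier years, d was above 0 for 22 of the 26 genes at Year 0.5, for 22 at Year 1, and for 20 at both. Among all genes within the same limits and with a mean CPM of at least 1, d was above 0 for 47.2% at Year 0.5 and 50.6% at Year 1. These signs come from values that the rule used and are given as a description.

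**Figure D1:**
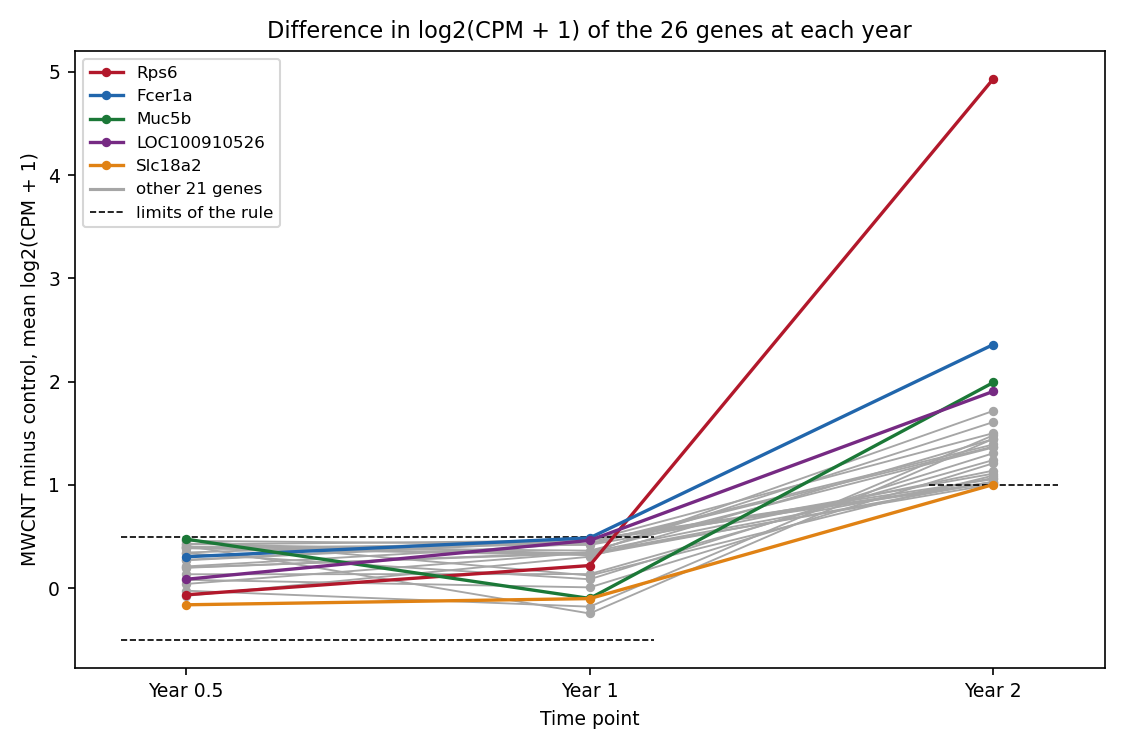
Difference in mean log2(CPM + 1), MWCNT-treated minus control (vertical axis), of each of the 26 genes by year (horizontal axis), with the limits of the rule as dashed lines. Rps6 reached 4.93 at Year 2, Fcer1a 2.36, Muc5b 1.99, and LOC100910526 1.91, and the other genes lay between 1.00 and 1.72.

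The borders of the selection were narrow. At the Year 2 limit of 1, the genes just inside were Slc18a2 (d of 1.003), Adam11 (1.006), and Vwa1 (1.02), and those just outside were Homer1 (0.9988), Atp8b1 (0.9986), and Scn3a (0.993). At the Year 0.5 limit of 0.5, Muc5b (0.474), AABR07051746.1 (0.468), and Fcamr (0.458) lay just inside, and Sass6 (0.513) and Col1a1 (0.515) just outside. At the Year 1 limit, Fcer1a (0.487), AABR07060992.1 (0.471), and AABR07060971.1 (0.469) lay just inside, and Nrg1 (0.504), Trpc6 (0.509), and Lpcat2 (0.529) just outside. At the CPM limit of 2, the entries inside included AABR07060992.1 (2.118) and AABR07065802.1 (2.152), and the entries just outside were AABR07061087.1 (1.98), Miip (1.86), and RGD1562392 (1.66). In all, 58 genes missed the selection by the Year 2 limit alone, 34 by the Year 0.5 limit alone, 50 by the Year 1 limit alone, and 10 by the CPM limit alone.

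Fcer1a, which encodes the alpha chain of the high-affinity receptor for immunoglobulin E on mast cells and basophils, had the second highest d. It had 8, 4, and 9 counts in the control rats of Year 2 and 103, 79, and 110 counts in the MWCNT-treated rats of Year 2. The corresponding levels were 1.11, 0.54, and 1.35 TPM in control rats and 13.3, 8.97, and 13.5 TPM in MWCNT-treated rats, a mean of 1.00 ± 0.413 against 11.9 ± 2.57 TPM (SD, n = 3) and 13.8-fold in mean CPM. All 3 treated rats of Year 2 lay far above all other 15 rats, among which the highest value was 2.14 TPM in an MWCNT-treated rat of Year 1. At Year 0.5 the treated rats had 0.64, 0.93, and 1.01 TPM and the control rats 0, 0.59, and 0.55 TPM. The treated rats were thus also above the control rats at Year 0.5, at levels of 5 to 10 counts. The treated rats of Year 1 had 0.74, 2.14, and 1.48 TPM and the control rats of Year 1 0.44, 0.96, and 0.35 TPM. With 1 added before the logarithm, these levels gave a d of 0.487. On the Rnor_6.0 assembly used by the files the gene lies at chr13:91730925-91737053.

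Slc18a2 encodes the vesicular monoamine transporter that loads histamine, serotonin, and other amines into granules and is shared by mast cells and neuroendocrine cells. Its levels in MWCNT-treated rats of Year 2 were 6.86, 6.55, and 7.41 TPM, against 2.89, 3.79, and 4.47 TPM in control rats of the same year. The 3 treated rats of Year 2 were again above all other 15 rats, and their spread was small (6.94 ± 0.435 TPM, SD, n = 3, 2.18-fold the control mean in CPM). At the earlier years the order was the other way. Treated rats had 3.14, 3.53, and 3.93 TPM at Year 0.5 and 3.54, 2.84, and 2.99 TPM at Year 1, all below the control rats of the same year, which had 4.35 to 4.55 and 3.69 to 4.26 TPM. On the TMM-adjusted CPM scale the 2 groups overlapped at Year 1 but not at Year 0.5.

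The sequences around the start of both genes are given because both mast cell genes were higher in treated rats at Year 2, and that of Vwa1, described below, because its promoter held the AP-1 motif. They run from 250 bases before to 50 bases after the start, 5′ to 3′ on the strand of the gene, as in RefSeq for the GRCr8 assembly, and not the assembly of the files. Capitals mark the box TATAAA in Fcer1a, the cAMP response element TGACGTCA in Slc18a2, and the AP-1 motif TGACTCA in Vwa1.
Fcer1a promoter, GRCr8 chr13:88224630-88224929, strand minus: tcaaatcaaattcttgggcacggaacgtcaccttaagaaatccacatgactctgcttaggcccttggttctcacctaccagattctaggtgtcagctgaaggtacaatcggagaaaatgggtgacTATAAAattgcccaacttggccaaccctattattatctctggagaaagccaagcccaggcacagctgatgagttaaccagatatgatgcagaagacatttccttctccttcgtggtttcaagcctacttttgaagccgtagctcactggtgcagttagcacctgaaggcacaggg
Slc18a2 promoter, GRCr8 chr1:268399771-268400070, strand plus: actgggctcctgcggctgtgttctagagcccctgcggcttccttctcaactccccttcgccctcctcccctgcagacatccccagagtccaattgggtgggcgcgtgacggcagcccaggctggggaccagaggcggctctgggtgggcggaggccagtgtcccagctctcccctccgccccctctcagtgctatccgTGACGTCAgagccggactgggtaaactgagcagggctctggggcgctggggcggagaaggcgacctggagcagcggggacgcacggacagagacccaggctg
Vwa1 promoter, GRCr8 chr5:171664831-171665130, strand minus: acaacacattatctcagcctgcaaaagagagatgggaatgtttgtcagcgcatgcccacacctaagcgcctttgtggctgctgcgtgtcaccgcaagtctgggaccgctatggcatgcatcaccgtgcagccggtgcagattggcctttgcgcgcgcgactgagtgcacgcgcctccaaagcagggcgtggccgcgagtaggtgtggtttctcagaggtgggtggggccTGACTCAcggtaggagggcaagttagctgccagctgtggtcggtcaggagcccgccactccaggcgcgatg

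The TATAAA of Fcer1a began 125 bases before the start, the TGACGTCA of Slc18a2 52 bases before, and the TGACTCA of Vwa1 21 bases before. The Fcer1a sequence held 46.7% G and C, that of Slc18a2 68.3%, and that of Vwa1 61.3%. Of the 17 named genes, 12 had a sequence in the RefSeq table, and each motif was searched on both strands in 300 bases. TATAAA was found in 1 of the 12 (14.2% of all 33469 promoters in the table), TGACGTCA in 1 (1.83%), and TGACTCA in 1 (4.63%). GGGCGG, the GC box, was found in 6 of the 12 (33.1% of all), namely Adamts2, Chgb, Clec11a, Prrg3, Rps6, and Slc18a2, and CCAAT in 4 (37.5% of all), namely Fcamr, Slc18a2, Slc8a1, and Vwa1. CACGTG (6.42% of all) and TCACGTGA (0.777% of all), which contains CACGTG, were found in none of these 12 windows. No motif was held by all 12 genes. Such matches describe letters in a window and not sites in use. Muc5b, Fst, Scara5, Dkk2, and Adam11 had no entry. Sequences were matched by gene symbol alone. That of Prrg3 came from another chromosome than the measured entry, so it may not belong to that entry.

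Beside these 2 members, a list of 32 mast cell and basophil genes gave 25 other entries, which the rule had screened and not kept. By edgeR's quasi-likelihood test, with a called gene having a Benjamini-Hochberg FDR under 0.05 and a log2 fold change beyond 1 in either direction, 14 of the 19 tested were called higher in MWCNT-treated rats at Year 2 and 2 lower. Tpsab1, a tryptase of mast cell granules, was higher by a log2 fold change of 7.86 (SE 0.24, FDR = 1.56e-07), Cpa3, the mast cell carboxypeptidase, by 5.30 (SE 0.23, FDR = 5.04e-07), and Ms4a2, the beta chain of the receptor that Fcer1a belongs to, by 4.16 (SE 0.24, FDR = 2.24e-06). Kit and Gata2, which mast cells need but other lung cells also express, were lower, by -1.31 (SE 0.08, FDR = 4.12e-06) and -1.49 (SE 0.13, FDR = 2.64e-05). The median log2 fold change of the 19 was 2.01, against -0.01 for all genes tested. At Year 0.5, 4 of 17 tested were called higher and 2 lower, and at Year 1, 12 of 19 higher and 0 lower, with medians of 0.84 and 1.43. Other mast cell genes were thus already called higher at the years when Fcer1a and Slc18a2 were within the limit. Fcer1a too had a higher mean in treated rats, 0.860 against 0.381 TPM at Year 0.5 and 1.46 against 0.584 TPM at Year 1. At those years its counts were too low for the filter of edgeR. Cpa3 was higher by 2.33 (SE 0.69, FDR = 0.0264) at Year 0.5 and by 3.91 (SE 0.61, FDR = 0.00114) at Year 1. At Year 0.5 its counts were 37, 151, and 19 in treated rats and 9, 6, and 20 in control rats. Treated rat 2 thus held most of that signal, and treated rat 3 lay within the control range. The same rat 2 had 127 counts of Tpsab1, against 21 and 8 in treated rats 1 and 3. In Mcpt1l1, a mast cell protease gene outside the list that was looked at after its values were seen, counts in MWCNT-treated rats were 37, 202, and 13 at Year 0.5, 112, 536, and 153 at Year 1, and 1579, 1642, and 1501 at Year 2, against 5 to 30 in all control rats.

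On the list, 3 mast cell genes outside the 26 also differed in their treatment effect between years. The rule had screened them too, and Mcpt8l3 met it with library size alone, so they are no independent support for the selection. In one model of all 18 rats, Ms4a2 had a log2 fold change larger by 3.16 at Year 2 than at Year 0.5 (SE 0.73, FDR = 0.043), the histamine-forming enzyme Hdc by 0.83 (SE 0.20, FDR = 0.0462), and the protease Mcpt8l3 by 2.91 (SE 0.49, FDR = 0.00875). Mcpt8l3 was also larger at Year 2 than at Year 1, by 2.56 (SE 0.47, FDR = 0.0286). Hdc itself was not called at any single year. It was at 5.24 to 5.62 TPM in treated and 7.0004 to 9.54 TPM in control rats at Year 0.5, and at 12.7 to 16.01 TPM against 12.4 to 14.5 TPM at Year 2.

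**Figure D2:**
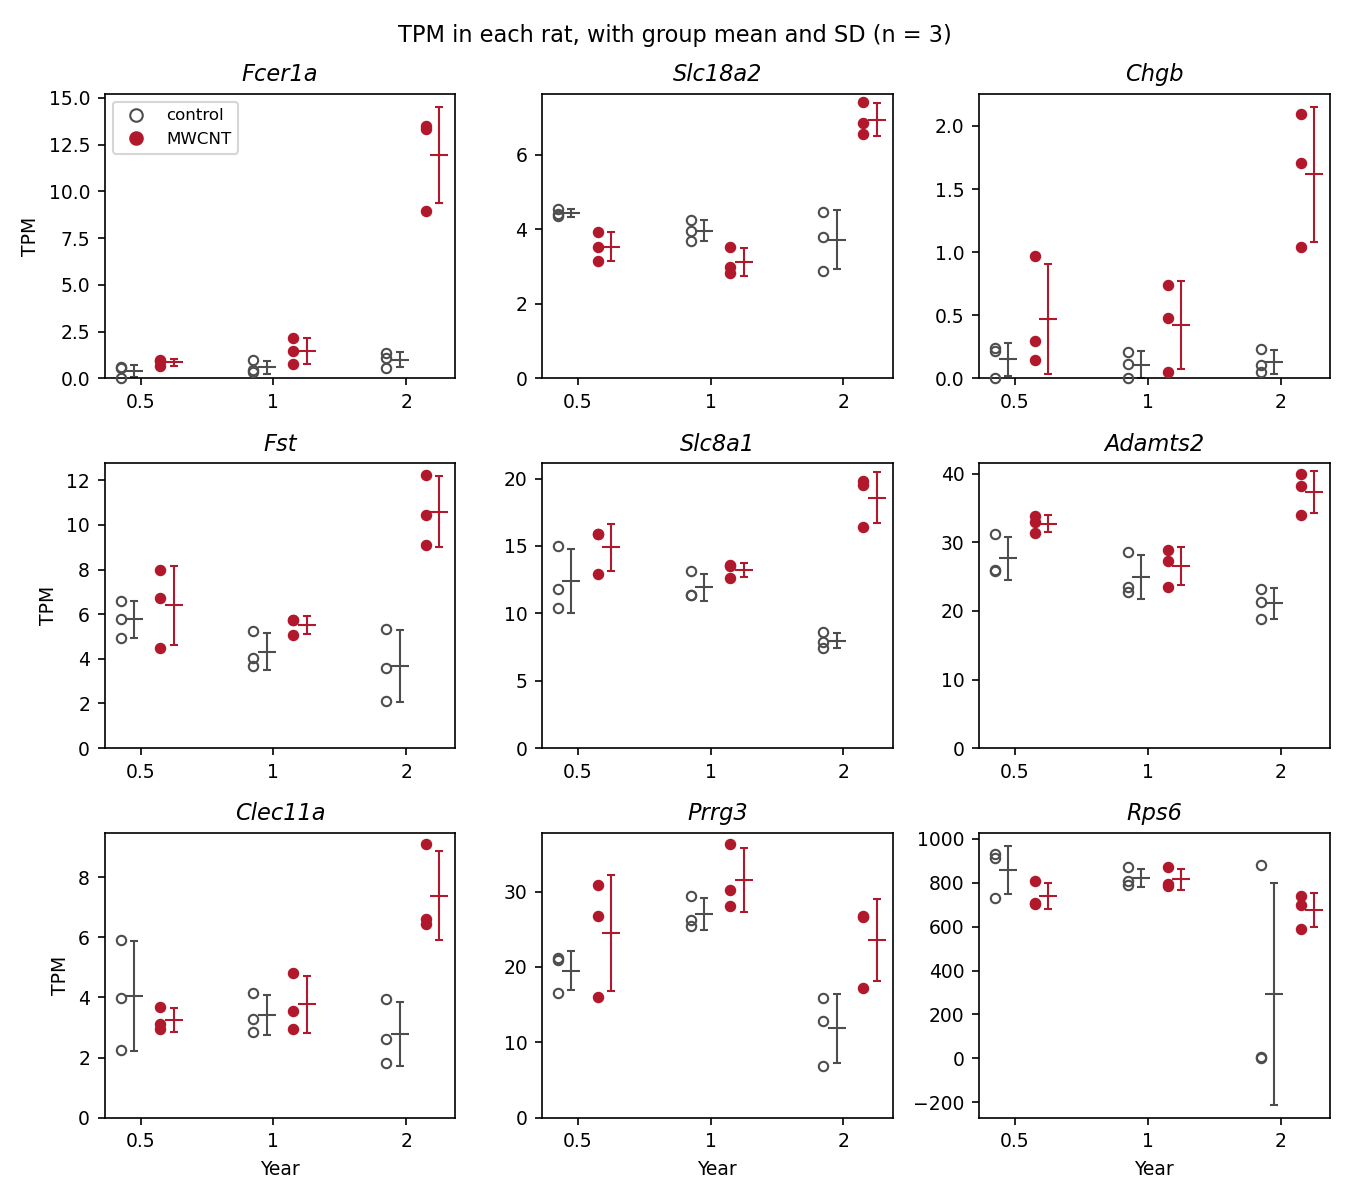
TPM (vertical axes) of 9 of the 26 genes in each rat by year (horizontal axes), with open circles for control rats, filled circles for MWCNT-treated rats, and group means with SD (n = 3) beside them. The MWCNT-treated rats of Year 2 stood above all others for Fcer1a, Slc18a2, Chgb, Fst, Slc8a1, Adamts2, and Clec11a, whereas for Prrg3 they lay within the range of the earlier treated rats and for Rps6 2 control rats of Year 2 were near 0.

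Chgb encodes chromogranin B, a protein of the dense-core granules of neuroendocrine cells. Its counts in MWCNT-treated rats of Year 2 were 42, 39, and 22, and in control rats of that year 1, 2, and 4. The levels were 2.10, 1.71, and 1.04 TPM against 0.0536, 0.105, and 0.231 TPM, or 14.7-fold in mean CPM. The treated rats of Year 2 were above the other 15 rats, but the margin was thin, since a treated rat of Year 0.5 had 0.97 TPM from 27 counts. Treated rats had 6, 27, and 3 counts at Year 0.5 and 10, 18, and 1 at Year 1, and control rats 0 to 5 counts at those years. The scatter among treated rats, rather than a level equal to control, was thus what the earlier years showed for this gene. Of the other genes on a list of 34 neuroendocrine genes, which also holds Slc18a2, 21 were tested at Year 2, of which 15 were called higher and 2 lower, with a median log2 fold change of 1.86. Tph1, which makes serotonin, was higher by 5.62 (SE 0.24, FDR = 4.63e-07), Calca, the precursor of calcitonin gene-related peptide, by 4.96 (SE 0.41, FDR = 1.68e-05), and Scg2, another granin, by 4.18 (SE 0.56, FDR = 0.00027). Which cells carried the Tph1 RNA was not tested. Chga, chromogranin A, had 9, 17, and 15 counts in treated rats of Year 2 and 5, 26, and 6 in those of Year 0.5. At the earlier years 8 of 19 and 8 of 17 genes of the list were called higher, and 0 and 1 lower. Calca and Scg2 were among those higher at Year 0.5, by 3.63 (SE 0.87, FDR = 0.0105) and 4.31 (SE 0.72, FDR = 0.00178). Among the genes of this list outside the 26, only Ncam1, a surface marker of these cells, was called for a treatment effect that differed with time. The difference was 1.28 between Year 2 and Year 1 (SE 0.27, FDR = 0.0499).

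Muc5b, Bpifb2, and Csap1 encode secreted proteins of the airway or of salivary-type glands, a gel-forming mucin, a protein of the family of the bactericidal/permeability-increasing protein, and common salivary protein 1, and in all 3 a single treated rat held most of the signal. Muc5b was at 4.91, 13.9, and 3.26 TPM in MWCNT-treated rats of Year 2 and at 0.71, 0.68, and 8.04 TPM in control rats. The groups overlapped, and control rat 3 was above treated rats 1 and 3. Muc5b was also high in single control rats of other years, at 5.32 TPM in rat 3 of Year 0.5 and 3.93 TPM in rat 2 of Year 1, and in the same 3 control rats Bpifb1, another secreted airway protein, stood at 47.0, 36.3, and 73.2 TPM, against 6.08 to 17.3 TPM in the 6 other control rats. Bpifb2 had 24, 181, and 5 counts in treated rats of Year 2 and 0, 2, and 2 in control rats. Csap1 had 7, 88, and 5 counts in treated rats of Year 2 and no count in any of the 9 control rats. Against a floor of 3 counts per library, its mean CPM was at least 10.04-fold higher than in the control rats of Year 2. For both genes treated rat 2 stood far above rats 1 and 3, and rat 3 rested on 5 counts. Of the other genes on a list of 36 airway secretory genes, 14 of 24 tested were called higher at Year 2 and 2 lower, with a median of 1.15 in log2 fold change, and 8 of 23 and 7 of 23 were called higher and 2 and 1 lower at Year 0.5 and Year 1. Muc4 and Muc1, membrane-bound mucins, were higher at Year 2 by 2.03 (SE 0.45, FDR = 0.00495) and 2.11 (SE 0.14, FDR = 4.12e-06), while Scgb1a1, the main product of club cells, had a log2 fold change of -0.80 (SE 0.18, FDR = 0.00479), short of the fold limit.

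A further 7 members, Adamts2, Vwa1, Fst, Dkk2, Clec11a, Scara5, and Adam11, encode matrix proteins, secreted signals, or cell surface proteins. Adamts2 encodes the enzyme that trims the amino-terminal propeptide from procollagen, and it was the most abundant named member after Rps6. It was at 34.0, 39.98, and 38.2 TPM in MWCNT-treated rats of Year 2 and at 18.8, 21.3, and 23.2 TPM in control rats, and the groups did not overlap. Treated rats of Year 0.5 had 31.4, 33.8, and 32.9 TPM, just above the control rats with 25.9, 25.9, and 31.3 TPM and not far below the treated rats of Year 2. In mean CPM the treated rats of Year 2 were 2.06-fold above control. Vwa1, a matrix protein of basement membranes, was at 19.2, 17.8, and 19.4 TPM in treated and 11.3, 11.1, and 8.94 TPM in control rats of Year 2. Its treated rats were above all other 15 rats, and at Year 1 they were also above control, at 12.9, 13.5, and 15.9 TPM against 11.5, 11.9, and 12.01 TPM.

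Fst encodes follistatin, a secreted inhibitor of activin. It was at 9.12, 10.4, and 12.3 TPM in MWCNT-treated rats of Year 2 and at 2.11, 5.34, and 3.61 TPM in control rats (10.6 ± 1.58 against 3.68 ± 1.62 TPM, SD, n = 3, 3.36-fold in mean CPM). The treated rats lay above all other rats, of which the highest was at 7.97 TPM. Inhba, the activin subunit on the matrix list, was itself higher at Year 2 by a log2 fold change of 3.47 (SE 0.54, FDR = 0.000716). Dkk2, a secreted modulator of Wnt signals, was at 8.06, 7.07, and 4.59 TPM in treated and at 3.81, 2.22, and 3.36 TPM in control rats of Year 2. These groups did not overlap, but treated rat 3 lay below rat 2 of the treated rats of Year 0.5, at 5.95 TPM.

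Clec11a, a secreted C-type lectin that acts as a growth factor for blood and bone progenitors, was at 6.60, 9.10, and 6.45 TPM in MWCNT-treated rats and at 2.63, 1.83, and 3.94 TPM in control rats of Year 2. Scara5, a scavenger receptor that takes up ferritin, was at 13.1, 19.2, and 14.7 TPM in treated and 8.54, 6.33, and 7.63 TPM in control rats. The folds in mean CPM were 3.06 and 2.41. Both genes were higher in the treated rats of Year 2 than in any of the other 15 rats, and both kept the rule whichever of the 18 rats was left out. Adam11, a member of the ADAM family that lacks protease activity, was at 2.13, 1.95, and 2.47 TPM against 0.913, 1.03, and 1.25 TPM, also without overlap and 2.39-fold in mean CPM.

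Of the 68 other entries of a list of 74 matrix genes, 65 were tested at Year 2, of which 19 were called higher and 2 lower, with a median log2 fold change of 0.50. At Year 0.5 5 of 63 and at Year 1 5 of 64 were called higher, and 1 lower at each, with medians of 0.10 and 0.07. Thbs2, a matricellular thrombospondin, was higher by 4.03 (SE 0.21, FDR = 1.37e-06) at Year 2, Fn1, fibronectin, by 1.49 (SE 0.08, FDR = 2.1e-06), and Col1a1, a chain of type I collagen, by 1.22 (SE 0.10, FDR = 1.51e-05). The 2 lower genes were Dcn, decorin, by -1.31 (SE 0.26, FDR = 0.00272), and Fbln2, fibulin 2, by -1.19 (SE 0.15, FDR = 0.000161). The treatment effect was larger at Year 2 than at Year 0.5 for 6 of 67 tested, Thbs2 by 1.45 (SE 0.28, FDR = 0.0187), Olfml2b by 1.11 (SE 0.24, FDR = 0.0297), Cpz by 0.99 (SE 0.18, FDR = 0.0111), Col15a1 by 0.97 (SE 0.16, FDR = 0.0077), Col8a1 by 0.95 (SE 0.21, FDR = 0.0331), and Loxl3 by 0.95 (SE 0.19, FDR = 0.0215). It was larger at Year 2 than at Year 1 for 3, Col1a1 by 0.95 (SE 0.20, FDR = 0.0499), Cpz by 0.90 (SE 0.18, FDR = 0.0337), and Fn1 by 0.88 (SE 0.17, FDR = 0.0316).

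Slc8a1 encodes the sodium/calcium exchanger of the plasma membrane, known best from heart muscle. It was at 19.5, 19.8, and 16.4 TPM in MWCNT-treated rats of Year 2 and at 7.46, 8.58, and 7.85 TPM in control rats, 2.71-fold in mean CPM. The treated rats were above all other rats and the control rats of Year 2 were below all other rats, whose range was 10.4 to 15.9 TPM. Its level thus differed from the earlier rats in both arms. Over 9 heart muscle markers, summed TPM at Year 2 was 55.3 to 107 in treated rats and 73.4 to 674 in control rats, and their part in the Slc8a1 values was not tested. Of the other genes on a list of 36 ion channel and receptor genes, 7 of 18 tested were called higher at Year 2 and 5 lower, with a median of -0.38, and at the earlier years 0 of 18 and 0 of 18 higher and 1 and 5 lower. Homer1, a scaffold protein of glutamate receptors and the gene nearest below the Year 2 limit, differed in treatment effect between Year 2 and Year 0.5 by 1.82 (SE 0.33, FDR = 0.0122). This list was chosen with earlier results of these data known, and its Homer1, Scn3a, and Trpc6 lay just outside the limits of the rule. Its counts and the Homer1 difference were thus partly set by that choice.

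Within each arm, the mean log2(CPM + 1) of the 6 earlier rats was subtracted from that of Year 2, with TMM factors set over all 18 rats. The 2 changes do not add up to d at Year 2, since d at the earlier years was not 0. The median change of the 26 genes was 0.94 in treated rats and -0.16 in control rats, against -0.0065 and -0.0014 over all genes with a mean CPM of at least 2 in the treated rats of Year 2. In absolute size, without regard to sign, the treated side was the larger for 23 of the 26 genes. With its sign, it was above 0.5 for 21 and above 1 for 10. The control side was below 0 for 16 genes (50.3% of all such genes) and below -0.5 for 3, namely Rps6, Prrg3, and Slc8a1. The rule used these Year 2 values and asked for a mean CPM of at least 2 in the treated rats, and the 13 genes under a mean CPM of 2 in the earlier rats had little room to fall in control rats, so a larger treated side was partly set by the selection.

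**Figure D3:**
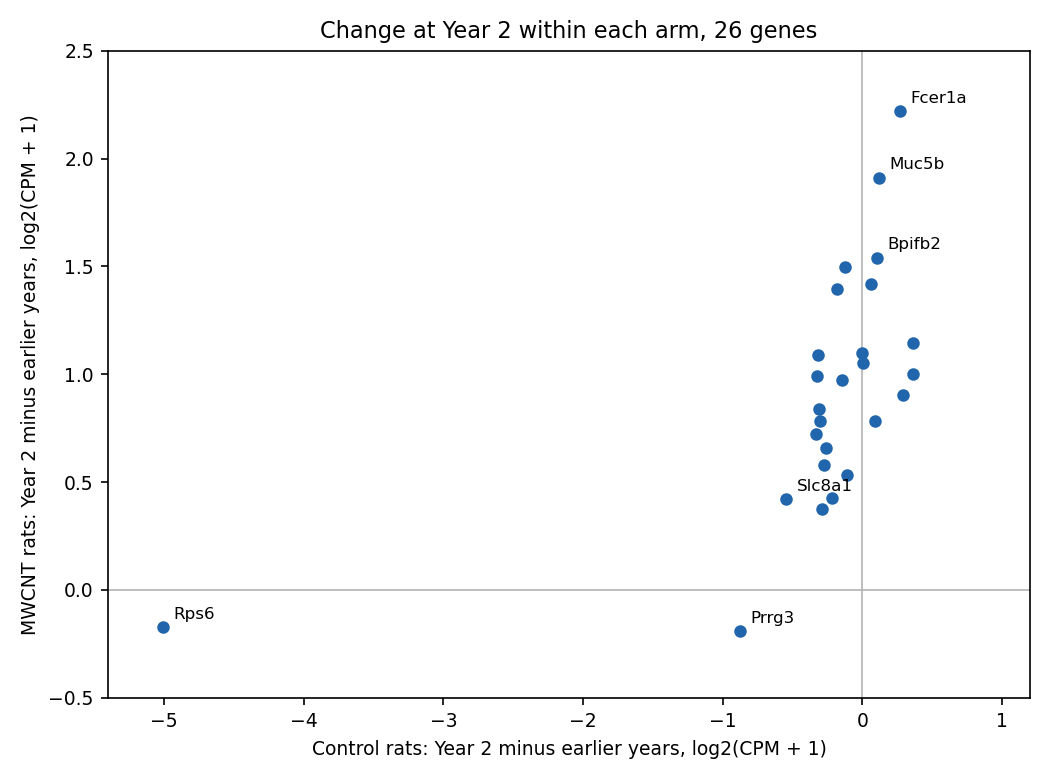
Change at Year 2 against the earlier years in mean log2(CPM + 1), in control rats (horizontal axis) and in MWCNT-treated rats (vertical axis), 1 point per gene for the 26 genes. Fcer1a lay at 2.22 in treated rats, whereas Rps6 and Prrg3 lay at -0.17 and -0.19 in treated rats and at -5.01 and -0.88 in control rats.

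For Prrg3 and Rps6 the level in MWCNT-treated rats did not go up at Year 2. Prrg3 encodes a vitamin K-dependent transmembrane protein with a Gla domain. It was at 26.7, 17.3, and 26.6 TPM in treated rats of Year 2, within the range of 15.99 to 36.3 TPM of the earlier treated rats, and at 6.85, 12.8, and 15.9 TPM in control rats of Year 2, all below the 16.5 to 29.4 TPM of the earlier control rats. The files place this entry at chr1:69285579-69287538 in Rnor_6.0, while RefSeq places the gene of this symbol on chromosome X of GRCr8, so its identity is uncertain.

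Rps6, a protein of the small ribosomal subunit that every cell needs, had the highest d of all. Its counts in the control rats of Year 2 were 0, 25, and 4471, and in the 15 other rats they were 3647 to 6206. Its levels in the treated rats of Year 2 were 739, 698, and 588 TPM, and those of the 13 rats other than these and the 2 control rats were 702 to 932 TPM. The d of 4.93 thus came from 2 control libraries in which almost no reads were assigned to this entry. Without these 2 libraries its d at Year 2 was -0.14, an alternative chosen after the data were seen. Another ribosomal entry, Rps27a_2, showed a like pattern of presence and absence in single rats, with 2065 counts in control rat 3 of Year 1, 1770 counts in control rat 3 of Year 2, and 0 in the other 16 rats. Reads of ribosomal protein genes can be shared with near-identical copies elsewhere in the genome, and how the counting placed them is not given in the sources used here.

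Fcamr encodes a receptor that binds immunoglobulin A and M. It had 33, 53, and 38 counts in MWCNT-treated rats of Year 2 and 3, 5, and 13 in control rats, or 1.36, 1.92, and 1.49 TPM against 0.13, 0.22, and 0.62 TPM. The treated rats were above all other 15 rats, the nearest being a treated rat of Year 0.5 with 37 counts, and mean CPM was 5.76-fold that of control. On a list of 30 B cell and plasma cell genes, 4 of 25 other genes tested at Year 2 were called higher and 3 lower, with a median log2 fold change of 0.06. Those higher were Jchain, which joins polymeric immunoglobulins, by 1.74 (SE 0.58, FDR = 0.0321), Irf4 by 1.55 (SE 0.22, FDR = 0.000439), Pigr by 1.54 (SE 0.16, FDR = 5.63e-05), and Derl3 by 1.22 (SE 0.32, FDR = 0.0119). Those lower included the B cell genes Cd79b, by -1.67 (SE 0.32, FDR = 0.00216), and Cr2, by -2.03 (SE 0.46, FDR = 0.00553). At the earlier years 3 of 27 and 3 of 24 were called higher and 4 and 1 lower.

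Of the 8 entries with clone names, 7 were short, with 291 to 740 bases, and 6 of these were highest in MWCNT-treated rat 1 of Year 2. AABR07051707.1 was at 76.2, 4.93, and 0.67 TPM in the treated rats of Year 2, AABR07051733.1 at 71.4, 0, and 4.44 TPM, AABR07040284.1 at 85.0, 2.77, and 3.33 TPM, and AABR07060992.1 at 24.3, 0.56, and 2.73 TPM. In each of these 4 rat 1 held most of the signal, and rats 2 and 3 lay within the range of the 15 other rats, except for the 4.44 TPM of AABR07051733.1, where the other rats reached 2.81 TPM. AABR07065802.1 was at 21.3, 0.374, and 16.2 TPM, and it was also at 11.8 and 6.43 TPM in 2 treated rats and 10.9 TPM in a control rat of Year 0.5. AABR07060971.1 was at 20.7, 6.90, and 8.47 TPM, and AABR07051746.1 at 22.2, 11.1, and 24.3 TPM against 22.1 TPM in control rat 3. The same treated rat 1 had the highest Jchain of all 18 rats, 1634 TPM, against 419 and 496 TPM in rats 2 and 3 of its group. The part of plasma cells in the values of these entries was not tested.

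Several of these entries were neighbors. AABR07051707.1, AABR07051733.1, and AABR07051746.1 lay in a stretch of chromosome 3 that began at 19690016 and ended at 20695952, with 766929 and 238717 bases between their starts. AABR07060971.1 (chr4:102068556-102069275) and AABR07060992.1 (chr4:102290338-102291065) lay 221782 bases apart. No other pair of the 26 genes lay within 1000000 bases. Many other entries within that distance also had no gene name, 26 of 27 around AABR07060992.1, 23 of 25 around AABR07060971.1, 26 of 27 around AABR07051707.1, 14 of 33 around AABR07051733.1, 13 of 36 around AABR07051746.1, and 4 of 7 around AABR07040284.1. Around AABR07065802.1 (chr6:141831336-141831632) all 29 had none, with a median length of 458 bases, and around AABR07005821.1 0 of 17 had none. Igh-6, the constant region of the immunoglobulin M heavy chain, begins at 138092131 on the same chromosome. In the rat the immunoglobulin heavy chain genes lie on chromosome 6 and the kappa light chain genes on chromosome 4. The files give these entries no gene name, and none is given here. AABR07005821.1 differed from the others, with 69118 bases on chromosome 1 and even values of 6.15, 9.57, and 7.02 TPM in treated and 4.21, 2.93, and 4.65 TPM in control rats of Year 2. LOC100910526, for which the files give no other name, had 74, 30, and 30 counts in treated rats of Year 2, 1, 0, and 0 in control rats of that year, and 0 to 15 in all earlier rats, with the treated rats of Year 2 above all others.

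**Figure D4:**
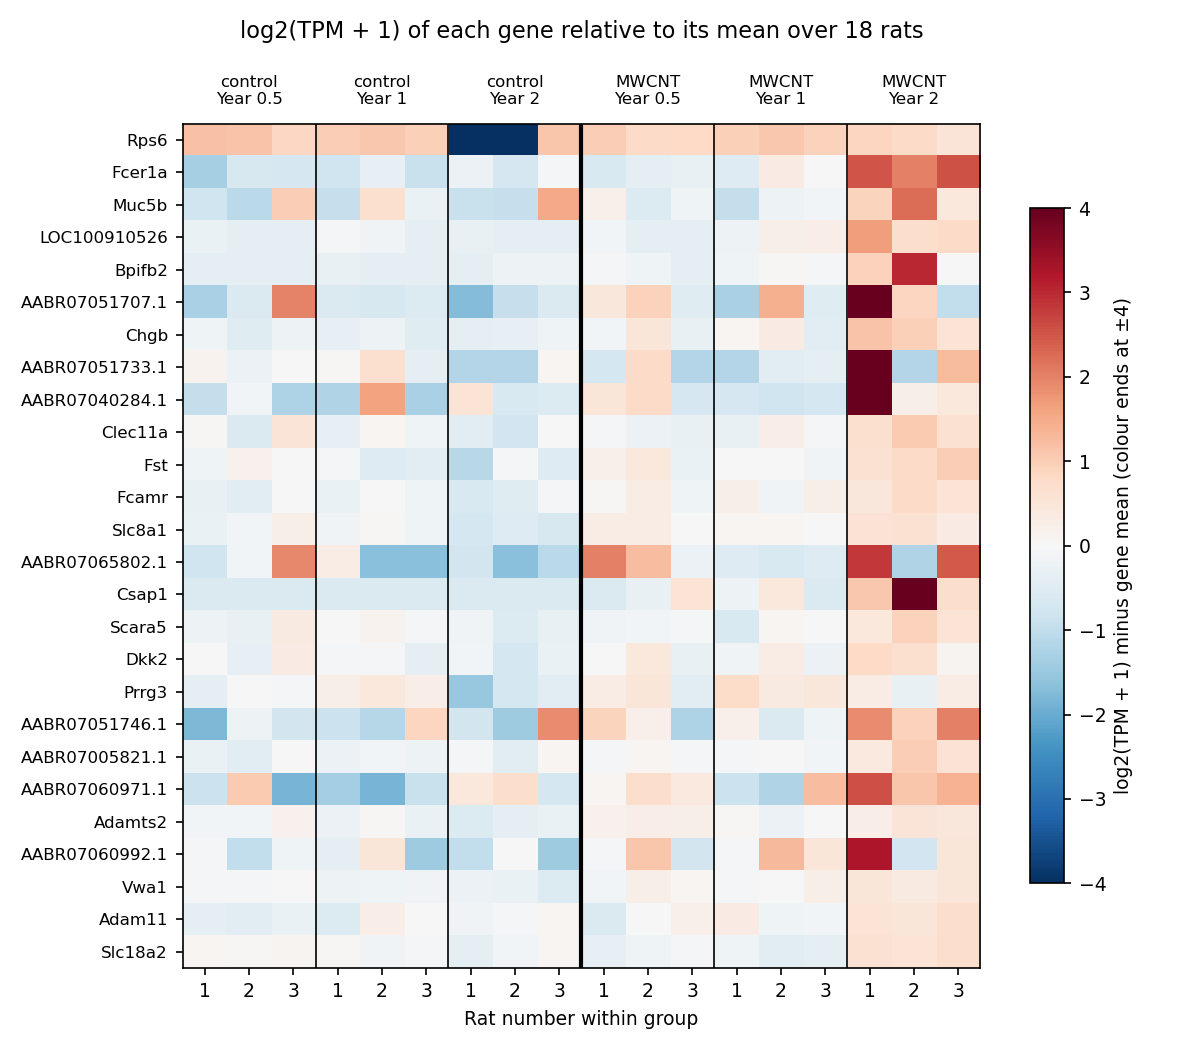
log2(TPM + 1) of the 26 genes (rows) in each of the 18 rats (columns, 3 per group), relative to the mean of each gene over all rats, with red for higher and blue for lower. The block of MWCNT-treated rats at Year 2 is red for most genes and the 2 blue cells of Rps6 are control rats 1 and 2 of Year 2.

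Counting over all 26 genes, the 3 MWCNT-treated rats of Year 2 were above the 3 control rats of Year 2 in TPM for 18, where 19% of the 13066 genes with a mean CPM of at least 2 met this. They were above all 15 other rats for 14 genes (4.69% of the same genes) and above the 6 earlier treated rats for 16 (6.6%). These counts rest on the values that chose the genes. At the earlier years, the treated rats were above the control rats for 2 genes at Year 0.5, Fcer1a and Adamts2 (18.2% of the same genes), and for 2 at Year 1, Bpifb2 and Vwa1 (15.8%). In the CPM that the rule used, these counts were higher, with 4 genes at Year 0.5 (Fcer1a, Adamts2, Vwa1, and AABR07005821.1, against 28.2% of the same genes) and 8 at Year 1 (Rps6, Bpifb2, Fst, Slc8a1, Prrg3, Adamts2, Vwa1, and AABR07005821.1, against 30.2%). The highest treated rat of Year 2 was rat 1 for 11 genes, rat 2 for 9, and rat 3 for 6. In 6 genes over 75% of the summed TPM of the 3 treated rats came from 1 rat, namely Bpifb2 and Csap1 from rat 2, and AABR07051707.1, AABR07051733.1, AABR07040284.1, and AABR07060992.1 from rat 1.

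**Figure D5:**
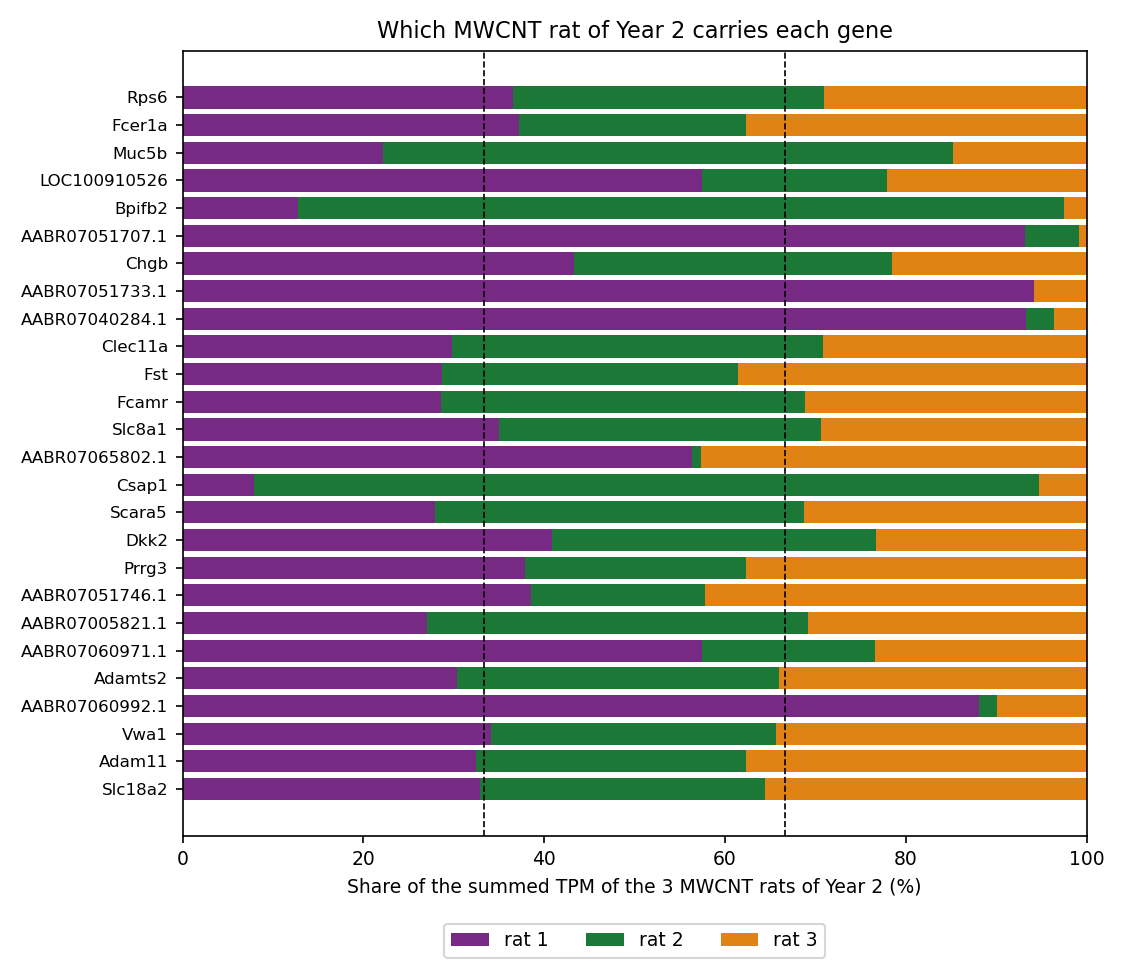
Share of the summed TPM of the 3 MWCNT-treated rats of Year 2 that came from each rat (horizontal axis, percent), for each of the 26 genes (vertical axis), with dashed lines at equal shares. Most named genes lie near the lines, whereas 4 entries with clone names are filled by rat 1 and Bpifb2 and Csap1 by rat 2.

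EdgeR's filter on low counts passed 18 of the 26 genes for Year 0.5, 15 for Year 1, and 19 for Year 2. At Year 2, 16 of the 19 were called higher, where 8.17% of all 14361 genes tested were called higher and 8.22% lower. Because this contrast chose the genes, nothing is read from that share. The 7 genes not tested were Bpifb2, Csap1, and 5 entries with clone names, and the 3 tested and not called were Rps6, Muc5b, and AABR07051746.1. At Year 0.5 and Year 1, 0 of the genes were called, where 6.07% and 6.13% of all genes tested were called higher and 3.03% and 4.09% lower. DESeq2 and limma also called 0. By edgeR, 4 of 18 and 7 of 15 had an unadjusted p under 0.05, where 47.8% and 50.2% of all genes tested did. The limits of the rule at these years set these counts, and nothing is read from them. In the fit of all 18 rats, the treatment effect was larger at Year 2 than at Year 0.5 for 4 of 23 tested, Slc8a1, Adamts2, Vwa1, and Slc18a2, where 0.856% of all genes were called in that direction. It was larger than at Year 1 for 3 of 23, Slc8a1, Adamts2, and Slc18a2, where 0.317% were. These contrasts also chose the genes. Leaving out single rats moved the second count between 0 and 5.

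The step from Year 0.5 to Year 1, averaged over both treatments, was not used by the rule. In the fit of all 18 rats, 0 of 23 genes tested were called by edgeR, where 0.0202% of all 14843 genes were called in either direction, and the lowest adjusted p among the 23 was 0.339. At an unadjusted p under 0.05 there were 4 of the 23, where 7.63% of all genes tested were. They were Adamts2 with a log2 fold change of -0.21 (SE 0.06), Prrg3 with 0.43 (SE 0.18), AABR07065802.1 with -2.34 (SE 0.91), and LOC100910526 with 2.32 (SE 0.92). Adamts2, with 909 to 2438 counts per rat, gave the smallest SE of these 4. In control rats alone 0 of 23 were called, where 0% of all genes were, and the lowest adjusted p was 0.755. At an unadjusted p under 0.05 there were 0, where 7.01% of all genes tested were. DESeq2 and limma called 0 of the genes in either comparison. The count filter, scaling, and dispersion of that fit drew on the rats of Year 2, in which the treated group is high. In a fit of the 12 earlier rats alone, added after the data were seen, 20 of the 26 genes passed the filter, without Fcer1a, LOC100910526, and AABR07060992.1. Again 0 were called by edgeR in either comparison, where 0.00684% and 0% of all 14630 genes tested were. The lowest adjusted p were 0.416 and 0.718. An unadjusted p under 0.05 was found for 3 genes averaged over both treatments (AABR07065802.1, Adamts2, and Prrg3) and 1 in control rats (Prrg3). The share of all genes at that p was not counted for this fit.

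Gene lists without any of the 26 genes were counted in the same way, beside shares over all genes of 8.17% higher and 8.22% lower at Year 2. At Year 2, 38 of 64 tested genes of lysosomal enzymes and membrane proteins were called higher, as were 30 of 38 Toll-like and myeloid receptor genes, 16 of 32 cell division genes, 12 of 25 genes of desmosomes and squamous epithelium, 6 of 20 V-ATPase subunits, and 6 of 30 genes of endoplasmic reticulum folding, each with 0 lower. Many of these were called before Year 2. Lysosomal genes were higher in 20 of 64 at Year 0.5 and 22 of 64 at Year 1, and Toll-like and myeloid receptor genes in 17 and 15 of 38. Cell division genes had their highest count at Year 0.5, with 21 of 31 and a median log2 fold change of 1.33, against 11 of 31 at Year 1 and a median of 0.986 at Year 2. The desmosome list had 4 of 23 and 3 of 22 higher at the earlier years, V-ATPase 2 and 3 of 20, and endoplasmic reticulum folding 1 and 2 of 29. Of the lipid genes 18 of 44 were called higher and 1 lower at Year 2, after 5 and 4 higher and 4 and 2 lower. Of growth factor receptors, ligands, and oncogenes 8 of 33 were higher and 5 lower, after 4 of 34 higher at each earlier year and 4 and 3 lower. Of p53 targets 5 of 28 were higher and 1 lower, after 0 of 27 and 1 of 28 higher. Of T cell and NK cell genes 4 of 22 were higher and 11 lower, after 4 and 3 of 22 higher and 0 lower. With library size alone in place of TMM, 9 cell division and 11 lipid genes were called higher at Year 2.

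A treatment effect that was larger at Year 2 was also called on lists that hold none of the 26 genes. Against Year 0.5 it was called larger for 12 of 64 lysosomal, 5 of 44 lipid, 3 of 38 Toll-like and myeloid receptor, and 2 of 21 V-ATPase genes, beside the 6 of 67 matrix and 3 of 19 mast cell genes above. Against Year 1 it was called larger for 5 lysosomal, 2 lipid, and 2 Toll-like and myeloid receptor genes. Over all genes tested, 0.856% and 0.317% were called larger against Year 0.5 and Year 1. On the cell division (32 tested), growth factor (34), and T and NK cell (22) lists, 0 were called in either comparison. Against Year 0.5, the desmosome list had 1 larger, the p53 list 0 larger and 1 smaller, and the endoplasmic reticulum list 1 larger and 1 smaller. Against Year 1, the endoplasmic reticulum list had 0 larger and 1 smaller.

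The membership of the list depended on single rats. Leaving out each of the 18 rats in turn, the number of genes that met the rule ranged from 20 to 46, and only Rps6, Clec11a, and Scara5 met it each time. Fst, Bpifb2, Csap1, and AABR07051733.1 met it in 17 of the 18 sets, and AABR07051746.1, AABR07060971.1, AABR07060992.1, and Adam11 in 12. The rat whose removal cost most members was MWCNT-treated rat 1 of Year 2, without which 13 of the 26 remained among 28. Without control rat 3 of Year 2 the rule gave 46 genes, 23 of them among the 26. The unit mattered as much. With log2(TPM + 1) in place of CPM, 24 genes met the rule and 8 of them were shared, and with CPM by library size alone, 25 met it and 16 were shared. On that scale the median log2 fold change of all genes tested lay at -0.182 at Year 2, and the members that fell below the limit included Slc18a2 (d of 0.853), Vwa1 (0.855), Adamts2 (0.862), and Adam11 (0.870). With the median of the 3 rats in place of the mean, 22 met the rule and 8 were shared, with a pseudocount of 0.5 31 and 15, and with one of 2 25 and 14. Without the 2 control rats of Year 2 that had almost no Rps6 reads, 38 met it and 17 were shared.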

How the data were processed

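RNA-seq of lung tissue from 18 rats was analysed, 3 per treatment and year, with groups taken from the sample labels. The authors mapped the reads with CLC Genomics Workbench and deposited, for each year, a count of reads per gene, TPM, and CPM as a TMM-adjusted signal. The labels name Rnor_6.0 (rn6) as the genome build. The TMM factors of the deposited CPM were set within each year's table, so levels were compared across years as TPM, or as CPM with factors set over all 18 rats. Deposited RPKM values and the columns of the authors' own comparisons (fold changes and p-values) were not used.

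The 3 tables were joined by identifier and the rule was applied to the deposited CPM with a pseudocount of 1. The counts were tested in R 4.3.3 with edgeR 4.0.16 (filterByExpr set to at least 10 reads and 15 in total, TMM, quasi-likelihood F test, Benjamini-Hochberg adjustment). Each year was fitted with its 6 rats, and treatment by time and Year 1 against Year 0.5 with all 18, the latter also with the 12 earlier rats alone. Calls needed an FDR under 0.05 and, except for treatment by time, an absolute log2 fold change above 1. SEs were derived from the fold change and the F statistic. The edgeR step was tested on simulated data. Each replicate is 1 rat. Total counts ranged from 13297643 to 21130757, and floors and counts cover counting error only.

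The members and the 16 gene lists were chosen with earlier results of these data known. Named were members on a list, the 15 with the largest d, the 10 with the highest TPM, the 3 genes on each side of each limit, neighbors within 1000000 bases, members that kept the rule in every leave-one-out set, and members called between Year 1 and Year 0.5. Other genes were named after their values were seen. Some genes that this rule covers are not reported here. Alternatives used library size alone, DESeq2 1.42.0, no count filter, limma 3.58.1 on log2(TPM + 1), a replicate block, other limits and pseudocounts, and left-out rats.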

Additional observations from a re-analysis of the deposited data

Results flagged for a closer look

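The treatment effect of 13 genes that are no members differed between Year 2 and an earlier year, by the interaction term of the edgeR model of all 18 rats at an FDR under 0.05. They come from the gene lists that hold at least 1 of the 26 genes. Other lists held such genes too, with 12 of 64 lysosomal and 5 of 44 lipid genes larger against Year 0.5. The rule had screened the 13 genes as well. Col1a1 and Homer1 lay just outside its limits, and Mcpt8l3 and Olfml2b met it with library size alone. The lists were also chosen with earlier results of these data known, so a larger effect at Year 2 was partly set for genes on them. Among mast cell genes, the log2 fold change was larger at Year 2 than at Year 0.5 by 0.8325 for Hdc, 2.914 for Mcpt8l3, and 3.161 for Ms4a2, and larger than at Year 1 by 2.559 for Mcpt8l3. Among neuroendocrine genes, that of Ncam1 was larger than at Year 1 by 1.284. Among matrix genes, the difference from Year 0.5 was 0.9734 for Col15a1, 0.9498 for Col8a1, 0.9919 for Cpz, 0.9458 for Loxl3, 1.107 for Olfml2b, and 1.446 for Thbs2, and that from Year 1 was 0.9515 for Col1a1, 0.9037 for Cpz, and 0.8802 for Fn1. For Homer1, on the ion channel list, the difference from Year 0.5 was 1.819. The groups had 3 rats each, and the tests of these genes were not rerun with single rats left out.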

How the results depend on the processing

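The rule gave 26 genes, and with other settings 16 at a minimum CPM of 5, 5 at a limit of 0.3 for the earlier years, and 38 without control rats 1 and 2 of Year 2, the last chosen after the data were seen, which turned the d of Rps6 to -0.1427. Of the 26, 8 were kept with the median of the 3 rats (22 genes), 15 with a pseudocount of 0.5 (31), 14 with one of 2 (25), and 17 without the 2 control rats. Leaving out 1 rat gave 20 to 46 genes. Against 16 members called at Year 2, limma on log2(TPM + 1) called 7, and 15 to 20 were called without single rats. At Year 0.5, where 0 were called, FDR alone called 1 and left-out rats gave 0 to 2. At Year 1 the count of 0 became 1 with no count filter, 1 in a fit of all 18 rats, 5 with FDR alone, and 0 to 1 without single rats. For treatment by time, the count of 4 against Year 0.5 became 7 with DESeq2 and 2 to 6 without single rats, and that of 3 against Year 1 became 5 with DESeq2 and 0 to 5 without single rats. Year 1 against Year 0.5 gave 0 under each setting run, a fit of the 12 earlier rats and left-out rats (0 to 0) included. Library size alone left 11 genes called higher and 4 lower on the lipid list, 3 higher on the p53 list, 5 on the growth factor list, 9 on the cell division list, and 3 on the endoplasmic reticulum list, and gave 4 lower on the matrix list and 1 lower on the desmosome list. The cause was not tested.

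Same-numbered rats did not pair: their deviations from the group means had a mean correlation of 0.0125 (-0.203 to 0.139, 9 pairs of rats). With the replicate block, 17 members were called at Year 2, 4 and 3 for treatment by time, and 0 at the other comparisons, so no count moved by over 1.5 times. Motif counts did not change in the 250 bases before the start. Members with few reads are limited by depth.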
